A study of Mus musculus with 12 samples.

Results

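The genes described here encode the subunits of the proteasome, its activators and the chaperones that assemble it, measured in the hypothalamus of mouse pups. They were taken by name: every gene row whose symbol starts with Psm, a letter from a to g and a number was kept if it held at least 100 counts over the 12 libraries and its symbol did not end in -ps. Of 43280 gene rows 54 matched the name, 2 pseudogenes (Psmb5-ps and Psmb6-ps) were dropped for their ending, and 4 were dropped for low counts, which left 48 genes. Just inside the limit were Psmb8 with 147 counts and the pseudogene Psmb6-ps2 with 156, and just outside were Psmb9 with 86 and Psma8 with 21. The other rows left out were Psmb11 with 10 counts and Psmb7-ps2 with 0. All 48 genes passed the filter on low counts, and 45 of them fell into 8 classes by the role of their product. The other 3 were Psmc3ip, a cofactor of meiotic recombination that is no proteasome subunit, Psme2b, a copy of the activator gene Psme2, and Psmb6-ps2, a pseudogene of the core subunit gene Psmb6.

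The study asked how early life stress affects gene expression in the hypothalamus. Male C57/Bl6 pups were either left with the dam (control) or exposed to modified maternal separation (MMS), in which pups spent a daily session away from the dam and were repeatedly rolled onto their backs, and tissue was taken on postnatal day 6 right after the last session. Littermates were divided between the groups, and the labels do not give the litter of a library. Each group held 6 pups with 1 library each, made with a kit that reads only the 3′ tail end of each mRNA.

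The proteasome degrades proteins that carry ubiquitin chains. Its barrel-shaped core, the 20S particle, stacks rings of alpha subunits, which gate the entrance, around rings of beta subunits, of which Psmb5, Psmb6 and Psmb7 cut the substrate. The 19S regulatory particle caps the core: its ATPases (Psmc genes) unfold and thread the substrate, and its non-ATPase subunits (most Psmd genes) bind ubiquitin and remove it. In the immunoproteasome the interferon-induced subunits Psmb8, Psmb9 and Psmb10 replace the constitutive catalytic ones. Separate chaperones build the core (Psmg genes) and the base of the cap (Psmd5, Psmd9 and Psmd10), and Psme genes encode activators that can take the place of the cap. When proteasome activity falls short, the transcription factor Nfe2l1 (NRF1) raises the transcription of subunit genes through antioxidant-response elements in their promoters.

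Library totals ran from 3765759 to 6560620 counts in controls and from 3218777 to 5344080 in MMS. MMS replicates 2 and 4 stood apart from the other libraries: on the first principal component of log2 CPM (counts of a gene scaled to the library's total) over all tested genes they lay at 57.8 and 46.3, against -14.4 to -3.04 for the other 10. All 17 hypothalamic markers passed the filter, with a summed level of 1323 to 2246 CPM in controls and 1576 to 2142 in MMS, and none of 7 pituitary markers passed (2.15 to 24.9 and 0.355 to 42.4 CPM). The hypothalamic sum held genes that went opposite ways. In both MMS 2 and MMS 4, Agrp, Pomc, Npy, Ghrh, Sox14 and Hmx3 lay below every control, and Pmch and Hmx2 lay above every control. Npy stood at 33.6 CPM in MMS 2 and 34.1 in MMS 4, against 58.4 to 225 in controls. Pmch stood at 635 and 929 CPM, against 195 to 500 in controls. Markers of ciliated ependymal cells, which line the ventricle beside the hypothalamus, summed to 40.8 CPM in MMS 2 and 76.4 in MMS 4, to 126 to 238 in controls, and to 125, 177, 220 and 157 in MMS 1, 3, 5 and 6. Of this ependymal list 14 of 15 genes were tested and none was at 0 in all libraries. Telencephalic markers (5 of 6 tested) summed to 92.1 CPM in MMS 2 and 73.8 in MMS 4, with controls at 37.1 to 80.7. At an adjusted p under 0.05 edgeR called 0 genes of these lists. At an unadjusted p under 0.05 there were 0 higher and 1 lower hypothalamic marker (Hmx3), 0 higher and 3 lower ependymal markers (Hydin and Rsph4a among them) and no telencephalic marker. Over all genes tested 4.68% were higher and 4.40% lower at that threshold. The median log2 fold changes of the hypothalamic, ependymal and telencephalic lists were 0.12, -0.72 and 0.34. With 1 library left out these medians ran from 0.04 (without MMS 3) to 0.24 (without control 6), from -0.89 (without MMS 5) to -0.50 (without MMS 4) and from 0.06 (without MMS 2) to 0.62 (without control 1). The part of these differences in the values below was not tested. In bulk tissue fewer cells of a type and less RNA per cell cannot be told apart.

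Promoters are shown for 3 genes that stood at the ends of the comparison: Psmd4 and Psmb5, which had the smallest unadjusted p among members lower in MMS, and Psma6, which had the smallest among members higher in MMS. Each runs from 250 bases before to 50 bases after a RefSeq transcription start (GRCm38.p6), 5′ to 3′ on the gene's strand. Capitals mark CCAAT, the motif of the NF-Y factor, and TGACNNNGC, the core letters of the antioxidant-response element, searched on both strands, so that a CCAAT on the other strand reads ATTGG.
Psmd4, chr3:95042565-95042864, minus strand: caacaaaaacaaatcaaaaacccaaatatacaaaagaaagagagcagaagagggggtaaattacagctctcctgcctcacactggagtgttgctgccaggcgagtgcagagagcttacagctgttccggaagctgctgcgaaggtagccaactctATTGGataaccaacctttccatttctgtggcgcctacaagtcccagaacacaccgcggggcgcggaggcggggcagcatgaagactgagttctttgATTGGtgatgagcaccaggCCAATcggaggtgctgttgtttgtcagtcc
Psmb5, chr14:54617946-54618245, minus strand: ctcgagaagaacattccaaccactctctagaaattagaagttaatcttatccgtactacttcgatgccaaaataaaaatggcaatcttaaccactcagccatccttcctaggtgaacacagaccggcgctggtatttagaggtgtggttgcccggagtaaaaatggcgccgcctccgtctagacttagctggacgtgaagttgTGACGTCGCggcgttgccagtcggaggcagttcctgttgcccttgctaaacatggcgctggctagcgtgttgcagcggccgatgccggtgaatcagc
Psma6, chr12:55383972-55384271, plus strand: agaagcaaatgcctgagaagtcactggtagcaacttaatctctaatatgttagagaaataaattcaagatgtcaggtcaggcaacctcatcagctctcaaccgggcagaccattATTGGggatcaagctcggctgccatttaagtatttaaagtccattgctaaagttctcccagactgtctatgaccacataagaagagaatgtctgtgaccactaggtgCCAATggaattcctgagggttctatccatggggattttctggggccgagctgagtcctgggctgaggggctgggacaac
The Psmd4 window held 3 CCAAT and no TGACNNNGC, the Psmb5 window 1 TGACNNNGC and no CCAAT, and the Psma6 window 2 CCAAT. A second RefSeq start of Psma6, at chr12:55398575-55398874, held neither. Of the 40 members with a RefSeq promoter 6 (15%) held TGACNNNGC, namely Psmb5, Psmb6, Psmc6, Psmd9, Psmd12 and Psme4, against 12.4% of all 32851 promoters and 14% of 27025 genes. CCAAT was in 13 of the 40 (32.5%), against 37.4% of promoters and 41.1% of genes. A match of letters is no evidence of a bound site.

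No proteasome gene passed the test between MMS and control. At an adjusted p under 0.05 by the quasi-likelihood test of edgeR with Benjamini-Hochberg adjustment 0 of 48 were called, as were 0 of all 13104 genes tested (0%), and the adjusted p of the members ran from 0.543 to 0.991. DESeq2 and limma-voom also called 0 members, and DESeq2 called 6 of all genes. DESeq2 was run without the count filter, on 23534 genes, and limma-voom on the 13104 that passed it. Their shares over all genes are therefore not like for like, since all 48 members passed the filter. Each method gave 3 members (6.25%) at an unadjusted p under 0.05, where all genes gave 6.23% in DESeq2 and 10.3% in limma-voom. Those of DESeq2 were Psma6, Psmb5 and Psmd4, and those of limma-voom were Psmb5, Psmd3 and Psmd4, all 3 lower. At an unadjusted p under 0.05 edgeR gave 3 of 48 members, or 6.25%, where the share over all genes was 9.08%. These were Psma6, which was higher in MMS (1 member against 4.68% of all genes), and Psmd4 and Psmb5, which were lower (2 members against 4.40%). With so few members called, these shares do not tell the members apart from all genes. The count of 3 members also depended on single libraries. It was 0 without MMS 2 (5.27% of all genes) and 1 without MMS 4 (5.35%) or without control 1, 3 or 6 (6.81% to 7.63%). Without MMS 6 it was 6 members, or 12.5%, where all genes gave 11.8%, and without MMS 5 it was 10 members, or 20.8%, where all genes gave 13.6%, so that in these settings the members' share lay above that of all genes. Leaving out both MMS 2 and MMS 4 gave 2 members, Psmb7 (higher) and Psmd4 (lower), where the share over all genes was 5.03%.

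The members showed no common shift. Their median log2 fold change was 0.01 (range -0.60 to 0.30), beside 0.0009 over all genes tested, and 25 of 48 (52.1%) had a positive fold change, beside 50.1% of all genes. The control and MMS libraries overlapped for all 48 members, and 0.389% of all genes did not overlap. Summed over the 48 genes the level was 6052 ± 219 CPM in controls and 5701 ± 501 in MMS (SD, n = 6 per group). The sum was lowest in MMS 2 (5197 CPM) and MMS 4 (5221 CPM), and highest in MMS 5 (6480 CPM).

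**Figure D1:**
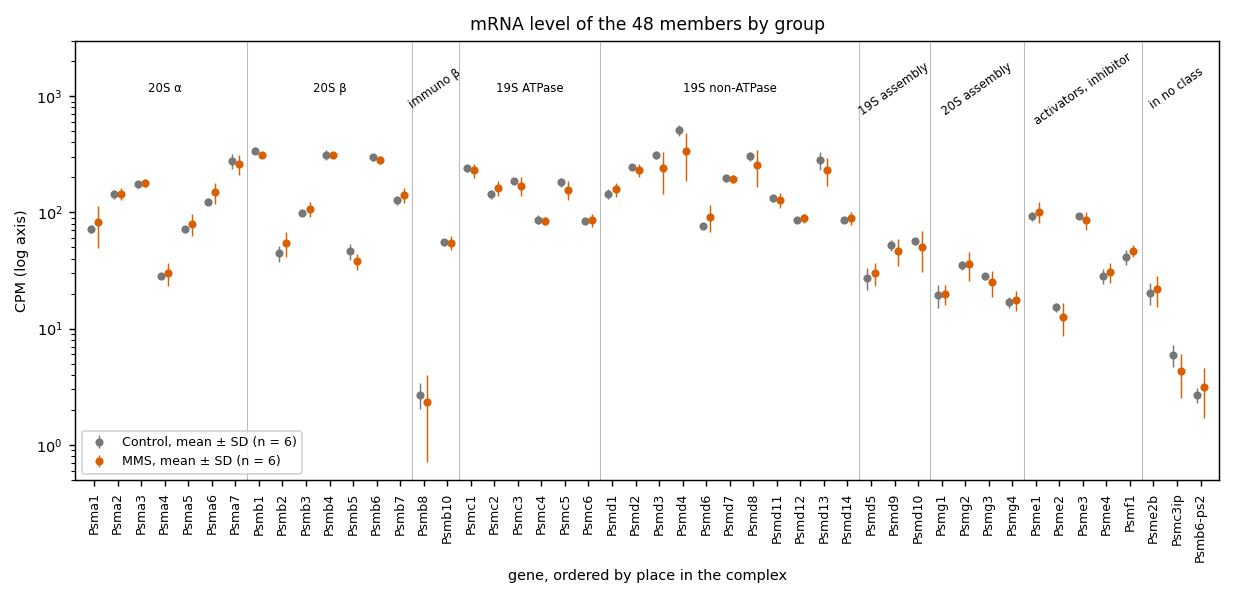
Mean level of each of the 48 genes in CPM (log axis) in the control and MMS groups, ordered by class, with bars of ± SD over 6 libraries. The group means lie close together for most genes, from 2.69 CPM for Psmb6-ps2 to 510 CPM for Psmd4 in controls, and in MMS Psmd4 has 337 ± 150 CPM.

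**Figure D2:**
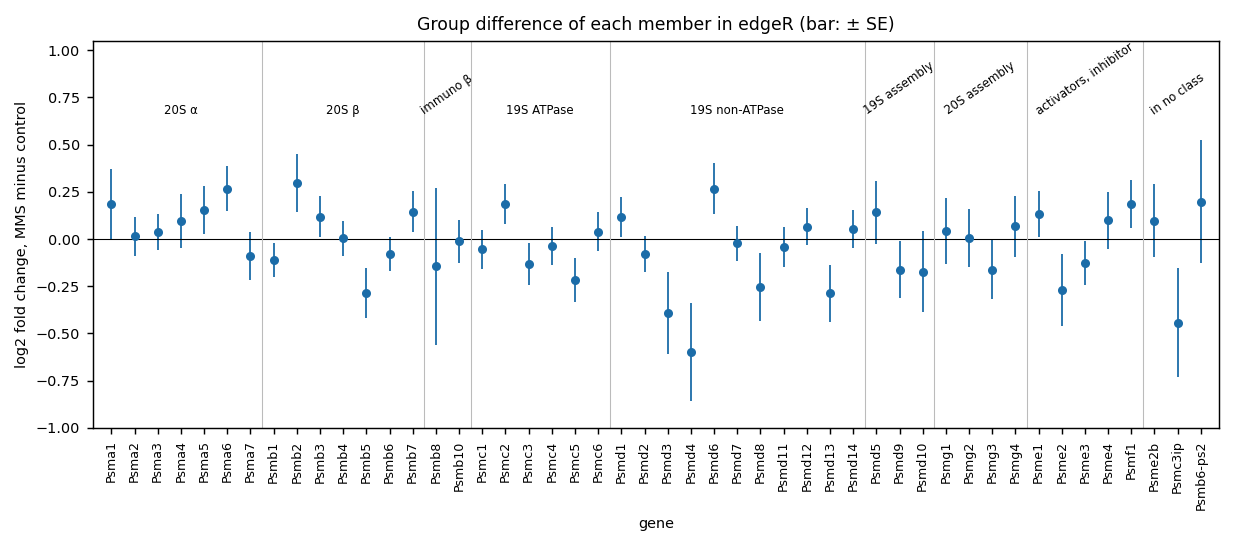
Log2 fold change of MMS relative to control for each of the 48 members in edgeR, ordered by class, with bars of ± SE. The points lie on both sides of 0 in every class but the immunoproteasome, from -0.60 for Psmd4 to 0.30 for Psmb2. The immunoproteasome class holds only 2 genes, Psmb8 (-0.14, SE 0.41) and Psmb10 (-0.01, SE 0.11), both within 1 SE of 0.

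Of the 7 alpha ring genes of the core 6 had a positive and 1 a negative fold change, with a median of 0.09 on the log2 scale (0.02 without MMS 5 to 0.16 without MMS 1), and 1 (Psma6) had an unadjusted p under 0.05. Summed, the ring stood at 889 ± 45.5 CPM in controls and 924 ± 77.0 in MMS, which overlapped. Psma6 (chr12:55384222-55418454, plus strand, mm10), an alpha ring subunit, had 114 CPM in the lowest control, a median of 125 and 135 in the highest. In MMS its lowest library had 123 CPM, the median was 135 and the highest 204. The difference came with MMS 4 (204 CPM) and MMS 2 (170 CPM), while the other MMS libraries lay between 123 and 139 CPM. Its log2 fold change in edgeR was 0.27 (SE 0.12, adjusted p 0.543), and 0.07 without MMS 2 and MMS 4. Psma1, another subunit of the ring, showed the same split of libraries, with 134 CPM in MMS 2 and 108 in MMS 4, 62.2 to 79.0 in controls and 56.0 to 76.0 in the other MMS libraries. Psma7, the most abundant alpha gene, stood at 217 to 312 CPM in controls and at 223 to 355 in MMS (log2 fold change -0.09). Psma4, the least abundant, stood at 27.4 to 29.5 CPM in controls and at 24.2 to 40.8 in MMS (0.09).

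The beta ring summed to 1268 ± 48.6 CPM in controls and 1252 ± 51.3 in MMS, a difference smaller than the SD of either group, with 4 genes of positive and 3 of negative fold change and a median of 0.004, which ran from -0.02 without control 1 to 0.05 without control 6. Psmb5 (chr14:54614119-54618022, minus strand) encodes the subunit with chymotrypsin-like activity. It had 38.7, 44.7 and 55.5 CPM in the lowest, median and highest control and 31.7, 36.3 and 46.5 CPM in MMS. Of the MMS libraries 4 (MMS 1, 2, 4 and 6) lay below every control and none above. In edgeR the log2 fold change was -0.29 (SE 0.13, adjusted p 0.544), and -0.18 without MMS 2 and MMS 4. The other catalytic subunits lay nearer to 0 or above it. Psmb6, with caspase-like activity, had a log2 fold change of -0.08 (SE 0.09), and Psmb7, with trypsin-like activity, one of 0.15 (SE 0.11), or 0.24 without MMS 2 and MMS 4. Psmb7 stood at 103 CPM in MMS 4 and at 140 to 159 in the other 5 MMS libraries, with controls at 108 to 142. The noncatalytic Psmb2 (chr4:126677630-126709714, plus strand) had the largest fold change of the ring, 0.30 on the log2 scale in edgeR (SE 0.15, adjusted p 0.563). It stood at 34.0, 47.9 and 50.7 CPM in the lowest, median and highest control, at 70.4 CPM in MMS 2 and 71.3 in MMS 4, and at 38.6 to 52.4 in the other MMS libraries. Without MMS 2 and MMS 4 its log2 fold change was 0.06. Psmb1, the most abundant gene of the ring, stood at 315 to 372 CPM in controls and 290 to 340 in MMS.

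Of the immunoproteasome subunits Psmb8 and Psmb9 were scarce, and Psmb10 was not. Psmb8 (chr17:34197721-34201454), which takes the place of Psmb5, was the least abundant member, with 1.60 to 3.36 CPM in controls and 0.322 to 4.26 in MMS, so that single libraries rested on few counts. Psmb9, which takes the place of Psmb6, fell under the limit of 100 counts. Psmb10 (chr8:105935735-105938444), which takes the place of Psmb7, made up nearly all of the immunoproteasome counts, with 48.4 to 59.2 CPM in controls and 44.6 to 63.9 in MMS and a log2 fold change of -0.01 (SE 0.11). As a ratio of counts, Psmb8, Psmb9 and Psmb10 together made 12.6% ± 0.545 of Psmb5, Psmb6 and Psmb7 in controls and 12.9% ± 1.54 in MMS (SD, n = 6 per group). The lowest control was at 11.8% and the highest at 13.5%, and MMS 1 to 6 were at 14.1%, 11.4%, 13.6%, 14.9%, 11.6% and 11.6%, on both sides of the controls. Genes of antigen presentation by MHC class I and of the interferon response, which are induced along with the immunoproteasome, gave 0 calls at an adjusted p under 0.05 among 13 tested of 16 listed. At an unadjusted p under 0.05 there was 1 higher, H2-D1, a class I heavy chain (log2 fold change 0.32), and 1 lower, the transcription factor Irf1 (-0.73). Over all genes tested 4.68% were higher and 4.40% lower at that threshold. The listed genes of antigen presentation and interferon summed to 273 to 334 CPM in controls and 268 to 363 in MMS. Markers of microglia, the resident immune cells of the brain, summed to 232 to 303 CPM and 221 to 282 CPM, with 12 of 12 tested, 0 adjusted calls and 1 gene, Cx3cr1 (-0.37), at an unadjusted p under 0.05.

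The ATPases of the 19S cap summed to 920 ± 31.1 CPM in controls and 889 ± 67.1 in MMS, with 2 genes of positive and 4 of negative fold change and a median of -0.05 (-0.07 without MMS 1 to -0.01 without MMS 4). Psmc5 and Psmc2, which both sit in the ATPase ring, lay at opposite ends. Psmc5 (chr11:106256154-106263120, plus strand) stood at 163, 181 and 209 CPM in the lowest, median and highest control and at 110, 163 and 182 in MMS, with MMS 2 at 110 and MMS 4 at 138. Its log2 fold change by edgeR was -0.22 (SE 0.12, adjusted p 0.571), and -0.07 without those libraries. Psmc2 (chr5:21785283-21803787, plus strand) stood at 121, 148 and 152 CPM in controls and at 135, 164 and 194 in MMS, with MMS 4 the highest and MMS 2 next at 177. Its log2 fold change by edgeR was 0.19 (SE 0.11, adjusted p 0.584), and 0.08 without those libraries. Psmc1 was the most abundant ATPase gene (220 to 268 CPM in controls and 187 to 264 in MMS) and Psmc6 the least abundant (80.2 to 88.7 and 71.8 to 102).

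The largest difference in summed level was in the non-ATPase subunits of the cap, and the groups overlapped. Their sum was 2380 ± 144 CPM in controls, where it ran from 2166 to 2576, and 2047 ± 391.4 in MMS. By library it was 2074 in MMS 1, 1684 in MMS 2, 1884 in MMS 3, 1626 in MMS 4, 2563 in MMS 5 and 2451 in MMS 6, so that MMS 1 to 4 lay below every control and MMS 5 and 6 lay within the controls. Of the 11 genes 4 had a positive and 7 a negative fold change, with a median of -0.04 (-0.10 without MMS 6 to -0.01 without MMS 1). The lower sum lay in 4 abundant genes and not in the class as a whole. Mean levels in controls and MMS were 510 and 337 CPM for Psmd4 and 314 and 240 for Psmd3. They were 283 and 232 CPM for Psmd13 and 304 and 255 for Psmd8. The remaining genes of the class differed less, in both directions.

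Psmd4 (chr3:95032694-95042614, minus strand), a ubiquitin receptor of the cap and the most abundant member, had 434, 510 and 578 CPM in the lowest, median and highest control. In MMS 1 to 6 it had 354, 172, 334, 165, 540 and 457 CPM. The first 4 of these lay below every control, and MMS 2 and MMS 4 lay lowest. In edgeR the log2 fold change was -0.60 (SE 0.26, adjusted p 0.543), the most negative of all members, and -0.27 without MMS 2 and MMS 4. Psmd3 (chr11:98682554-98695979, plus strand), a lid subunit, had 267, 314 and 347 CPM in controls and 299, 155, 184, 128, 341 and 329 CPM in MMS 1 to 6. MMS 2, 3 and 4 lay below every control. Its log2 fold change by edgeR was -0.39 (SE 0.22, adjusted p 0.584), and -0.12 without MMS 2 and MMS 4. Psmd13 (chr7:140881968-140898643, plus strand), also of the lid, had 226, 274 and 346 CPM in controls and 217, 208, 189, 169, 339 and 268 in MMS 1 to 6, with an edgeR log2 fold change of -0.29 (SE 0.15, adjusted p 0.564), or -0.15 without MMS 2 and MMS 4. Psmd8, another lid subunit, had 271 to 335 CPM in controls and 258, 154, 228, 173, 341 and 376 in MMS 1 to 6, which reached both below and above the controls.

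Within the same lid Psmd6 had a positive fold change. Psmd6 (chr14:14112174-14120984, minus strand), the least abundant gene of the class, had 73.1, 76.0 and 82.1 CPM in the lowest, median and highest control and 85.2, 116, 73.9, 128, 72.4 and 76.0 CPM in MMS 1 to 6. Only MMS 1, 2 and 4 lay above every control. In edgeR the log2 fold change was 0.27 (SE 0.14, adjusted p 0.556), and 0.01 without MMS 2 and MMS 4. Psmd14, the deubiquitinase of the lid, stood at 80.4 to 90.9 CPM in controls and 75.9 to 104 in MMS, and Psmd7, its partner, at 175 to 218 and 174 to 219.

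**Figure D3:**
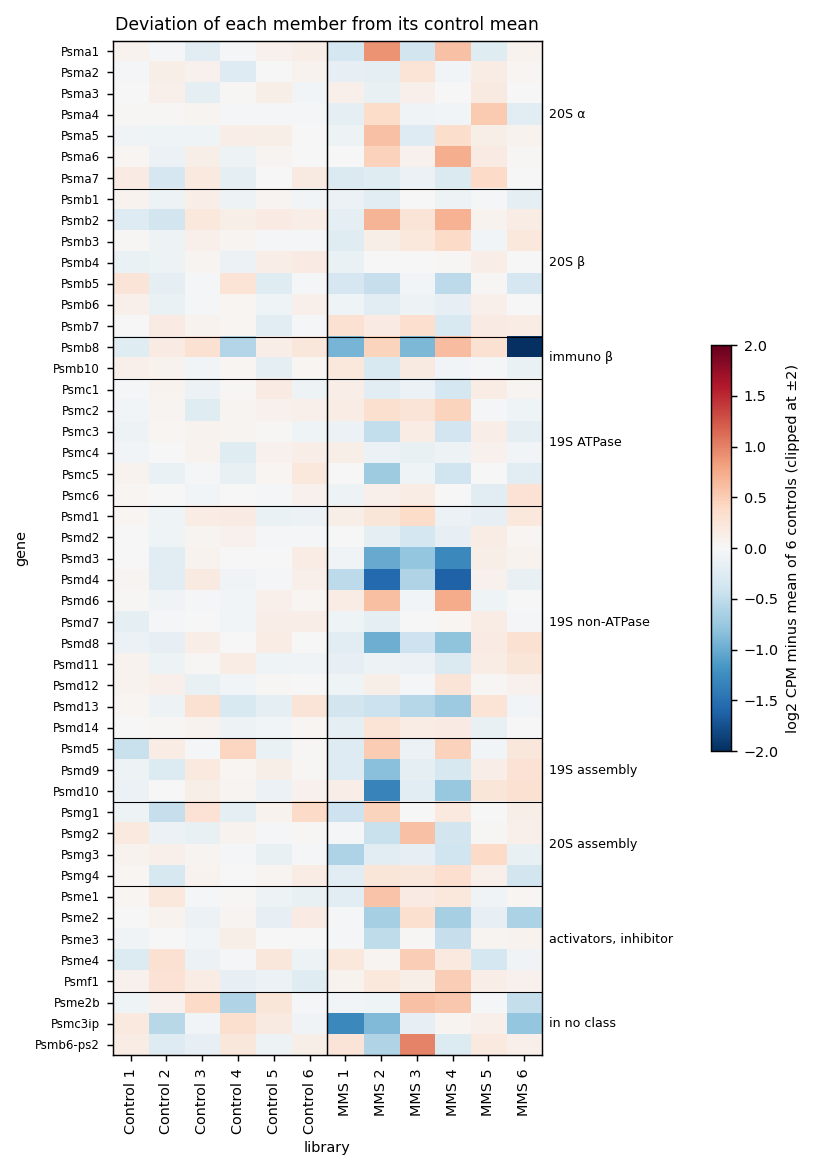
Log2 difference of each member from its mean over the 6 controls, with genes in rows ordered by class, the 12 libraries in columns and the colour scale clipped at ± 2. Blue cells in the columns of MMS 2 and MMS 4 mark Psmd4 at -1.56 and -1.62, and red cells mark Psma1 at 0.89 in MMS 2 and Psmd6 at 0.74 in MMS 4.

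The cap and the core could be set against each other within a library, a ratio that no scaling between libraries can change. The cap sum took only the 17 members in the cap classes (6 ATPases and 11 non-ATPases). Cap genes with other names, such as Shfm1 (Sem1) and Adrm1, were not part of it. Divided by the summed level of the 14 core subunits it was 1.49, 1.52, 1.55, 1.56, 1.52 and 1.54 in controls 1 to 6. In MMS 1 to 6 it was 1.51, 1.14, 1.29, 1.12, 1.49 and 1.56. MMS 2, 3 and 4 lay below every control, MMS 1 and 5 lay among them, and MMS 6 was level with the highest control. The core sum itself stayed between 2001 and 2353 CPM in all 12 libraries. Without Psmd4, which holds a large share of the cap counts, the ratio was 1.25 to 1.32 in controls and 1.33, 1.06, 1.14, 1.04, 1.26 and 1.35 in MMS 1 to 6. The same 3 libraries were lowest. Psmd3, Psmd8 and Psmd13, which lay below every control in MMS 2, 3 and 4, were still in that sum. A ratio without them was not computed, so these values do not show a shift of the cap as a whole. The ratio of cap to core was set up after the values of the classes had been seen and was given no test.

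**Figure D4:**
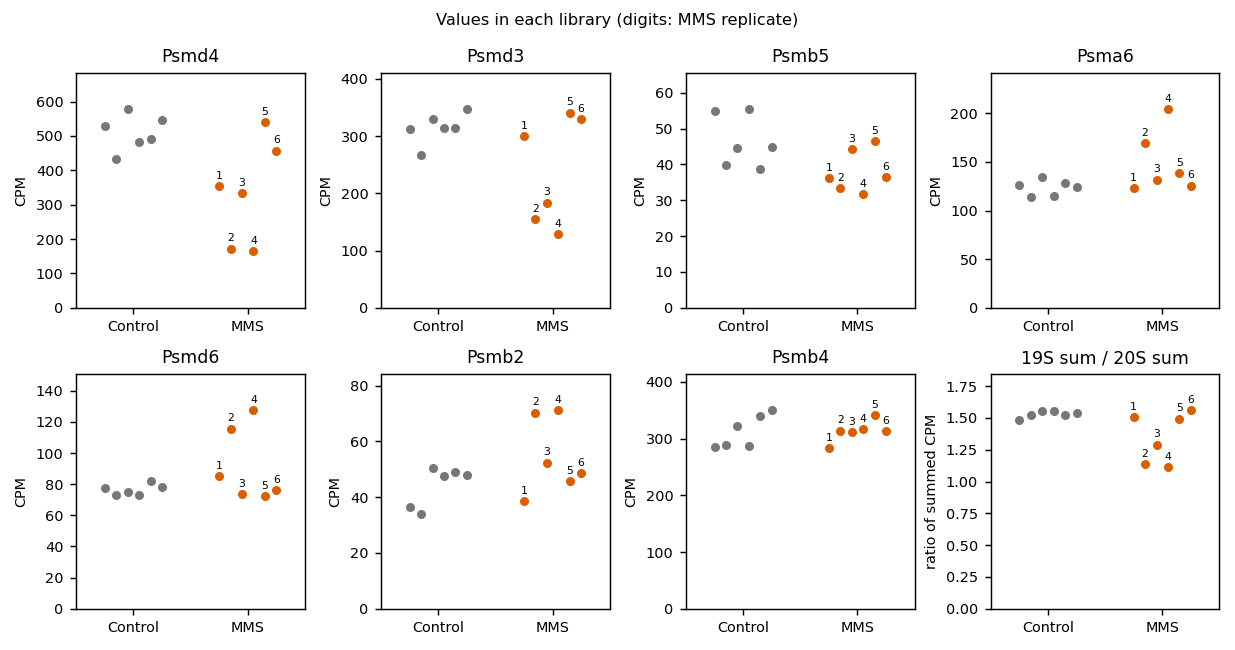
Level in CPM of Psmd4, Psmd3, Psmb5, Psma6, Psmd6, Psmb2 and Psmb4, and the ratio of summed cap (19S) to summed core (20S) CPM, with 1 point per library and the MMS points numbered by replicate. MMS 2 and MMS 4 lie below the controls for Psmd4 and for the ratio (1.14 and 1.12) and above them for Psma6, Psmd6 and Psmb2, while Psmb4, a core subunit gene, lies at 283 to 341 CPM in MMS and 285 to 351 in controls.

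Assembly chaperones were low in level. Those of the cap base (Psmd5, Psmd9 and Psmd10) summed to 136 ± 11.3 CPM in controls and 127 ± 27.3 in MMS, with 1 positive and 2 negative fold changes and a median of -0.16 (-0.27 without MMS 6 to -0.01 without MMS 2). Psmd10, also known as gankyrin, had 51.8 to 61.1 CPM in controls and 61.8, 22.0, 48.1, 33.2, 67.1 and 69.9 in MMS 1 to 6, so that 3 MMS libraries were below and 3 above every control. Its log2 fold change by edgeR was -0.17 (SE 0.21) and changed sign to 0.13 without MMS 2 and MMS 4. The core chaperones Psmg1 to Psmg4 summed to 99.8 ± 6.27 CPM in controls and 98.5 ± 12.9 in MMS, with 3 positive and 1 negative fold change and a median of 0.02, which ran from -0.05 without MMS 3 to 0.08 without MMS 1. Psmg2, the most abundant of them, had 31.9 to 40.3 CPM in controls and 25.8 to 53.3 in MMS.

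Activators and the inhibitor summed to 272 ± 16.3 CPM in controls and 278 ± 15.6 in MMS, with 3 positive and 2 negative fold changes and a median of 0.10 (0.01 without MMS 3 to 0.19 without MMS 5). Psmf1 (chr2:151715812-151744186, minus strand), which encodes the proteasome inhibitor PI31, had 34.8, 40.6 and 50.5 CPM in the lowest, median and highest control and 43.1, 44.9 and 58.0 CPM in MMS. Its log2 fold change by edgeR was 0.19 (SE 0.12, adjusted p 0.632), and 0.10 without MMS 2 and MMS 4. Psme1 and Psme2 encode the paired subunits of the interferon-induced activator PA28. Psme1 stood at 83.0 to 107 CPM in controls and 79.4 to 137 in MMS (log2 fold change 0.13, SE 0.12). Psme2 stood at 13.4 to 17.1 CPM and 9.40 to 19.1 CPM (-0.27, SE 0.19). The last 300 bases of the Psme2 transcript were 99.0% identical to those of Psme2b (0.10, SE 0.19), so reads could have been counted in either gene and the values of both are uncertain. Psme3, which encodes a nuclear activator, stood at 89.3 to 102 CPM in controls and 65.8 to 98.9 in MMS.

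Apart from Psmc3ip and Psmb6-ps2, described next, the members not yet given values were Psma2, Psma3, Psma5, Psmb3, Psmc3, Psmc4, Psmd1, Psmd2, Psmd5, Psmd9, Psmd11, Psmd12, Psmg1, Psmg3, Psmg4 and Psme4. Their log2 fold changes ran from -0.16 for Psmd9, a chaperone of the cap base, to 0.15 for Psma5, a core alpha subunit.

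Some other members also share sequence with a neighbour or copy. The 3′ end of Psmc3ip lies inside Mlx on the opposite strand, and Psmc3ip held 292 counts beside 2235 for Mlx. Psmc3ip had the widest negative fold change of any row apart from Psmd4 (-0.44, SE 0.29, edgeR), at 3.80 to 7.33 CPM in controls and 2.11 to 6.28 in MMS. The 3′ ends of Psmb7 and Nek6, of Psmc3 and Slc39a13, and of Psme1 and Emc9 overlap on opposite strands, and whether counting used the strand is not given. Psmb5 was 99.6% identical over the aligned part of its end to the pseudogene Gm3375, which has no row with counts, and Psma5 was 97.2% identical to the pseudogene Gm8394, which held 408 counts beside 4179 for Psma5. Psmb6-ps2 was 93.8% identical to Psmb6 where they aligned and had a log2 fold change of 0.20 (SE 0.33), at 2.17 to 3.21 CPM in controls and 1.61 to 5.75 in MMS.

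Over all 48 members the spread within a library was wider in 5 of 6 MMS libraries than in any control, with each control part of the mean it was set against. For each library the log2 CPM of every member was set against the mean of that gene over the 6 controls, and the SD of these differences over the 48 members was taken. In controls 1 to 6 this SD was 0.13, 0.18, 0.14, 0.19, 0.12 and 0.12. In MMS 1 to 6 it was 0.29, 0.54, 0.34, 0.50, 0.16 and 0.37. Only MMS 5 lay within the range of the controls. The median difference stayed near 0 throughout, at -0.05 to 0.05 in controls and at -0.10, -0.14, -0.01, -0.05, 0.10 and 0.02 in MMS 1 to 6, so no library had its members displaced as a set by more than 0.14.

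Counting error alone gives an SD of 0.0996 to 0.130 in controls and of 0.166, 0.162, 0.166, 0.123, 0.124 and 0.258 in MMS 1 to 6. It was widest in MMS 6, the library with the fewest counts, where Psmb8 rested on 1 count. Over the 45 members with a mean of at least 50 counts the SD was 0.12 to 0.17 in controls and 0.20, 0.53, 0.29, 0.51, 0.17 and 0.20 in MMS 1 to 6, so that MMS 6 came down from 0.37 to 0.20. Each control forms part of its own reference, which narrows its spread. Over all members, against the mean of the other 5 controls, the SD of the controls was 0.14 to 0.22. MMS 5 lay within that range while the other MMS libraries lay above it. The limit of 50 counts and this reference were each applied alone and not together. With the limit of 50 counts alone, MMS 1 and MMS 6 (0.20 each) lay little above the highest control (0.17). MMS 2, 3 and 4 (0.53, 0.29 and 0.51) lay further above it. Whether MMS 1 and MMS 6 stay above the controls with both applied was not tested. Genes at large were spread in the same libraries. Over all 9390 tested genes with a mean of at least 50 counts the SD was 0.205 to 0.227 in controls and 0.28, 0.55, 0.33, 0.51, 0.25 and 0.28 in MMS 1 to 6, with MMS 2, MMS 4 and MMS 3 again the widest. It was larger than that of the members in all 12 libraries, by little in MMS 2 and MMS 4. Members and genes at large were not matched for level above that floor, and counting error is wider at lower counts. The comparison therefore does not show that the members are less spread than other genes.

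**Figure D5:**
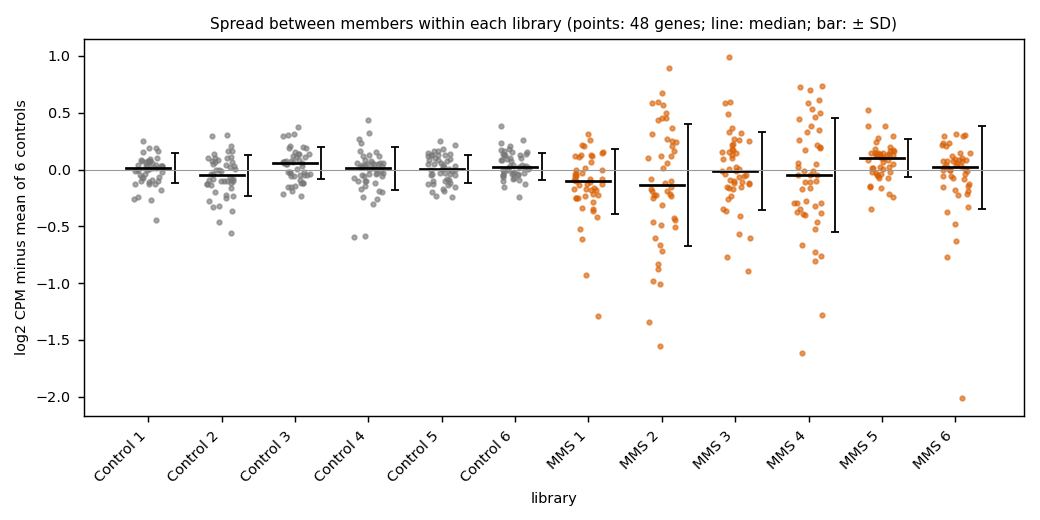
Log2 CPM of each of the 48 members minus its mean over the 6 controls, by library, with a line at the median and a bar of ± SD over the members. The bars are longest in MMS 2 (SD 0.54) and MMS 4 (0.50), against 0.12 to 0.19 in controls and 0.16 in MMS 5.

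In MMS 2 there were 6 members more than 0.5 log2 units above the control mean and 10 more than 0.5 below, and in MMS 4 there were 6 above and 7 below. Those above in MMS 2 were Psma1 (0.89), Psmb2 (0.68), Psmd6 (0.60), Psma5 (0.58), Psme1 (0.57) and Psmd5 (0.50). In MMS 4 they were Psmd6 (0.74), Psma6 (0.72), Psmb2 (0.70), Psmb8 (0.61), Psma1 (0.58) and Psme2b (0.53). The lowest in MMS 2 were Psmd4 (-1.56), Psmd10 (-1.34), Psmd3 (-1.01), Psmd8 (-0.98) and Psmc3ip (-0.88), and in MMS 4 Psmd4 (-1.62), Psmd3 (-1.28), Psmd8 (-0.81), Psmd10 (-0.76) and Psmd13 (-0.72). The core genes Psma1 and Psmb2 and the lid gene Psmd6 thus stood high in both libraries, and the cap genes Psmd4, Psmd3 and Psmd8 and the chaperone gene Psmd10 stood low in both. In MMS 3 there were 3 above and 4 below, the latter Psmb8 (-0.90), Psmd3 (-0.77), Psmd4 (-0.61) and Psmd13 (-0.56). In MMS 1 there were 0 above and 4 below, in MMS 5 1 above and 0 below, and in MMS 6 0 above and 3 below. No control had a member above 0.5, and 2 of the 6 controls had members below -0.5 (1 in control 2 and 2 in control 4). Each control forms part of its own reference, which narrows its values, so the counts in controls and MMS are not like for like. Psmd5 came near the limits, at 0.44 in control 4 and -0.44 in control 1. The share of all tested genes past 0.5 was not computed for any library.

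The difference of a member from the control mean was compared with the base composition of its transcript. Across the 48 members the correlation with the GC content of the longest coding transcript was r = -0.27 (Spearman's rho = -0.38) in MMS 2 and r = -0.30 (rho = -0.33) in MMS 4. It was r = -0.31 in MMS 6, r = 0.25 in MMS 5, and between -0.29 and 0.25 in controls. With transcript length r was -0.07 in MMS 2 and -0.09 in MMS 4. Members of 1 library share its depth and preparation and are not independent, so these values are a description.

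Genes that work with the proteasome were taken from a separate list of 32, of which 31 were in the table and 30 were tested. At an adjusted p under 0.05 edgeR called 0. At an unadjusted p under 0.05 it gave 3 higher and 1 lower of the 30, where 4.68% of all genes tested were higher and 4.40% lower. There were 15 genes of positive and 15 of negative fold change, with a median of -0.01 (-0.05 without MMS 6 to 0.02 without MMS 1). Ufd1l and Nploc4, which together link ubiquitinated proteins to the unfoldase Vcp, had edgeR log2 fold changes of 0.33 (SE 0.10, adjusted p 0.518) and 0.31 (SE 0.12). The third was Zfand5, an activator of the proteasome (0.23), and the lower one was Fam192a, a binding partner of the Psme3 activator (-0.41, SE 0.15). Nfe2l1 had a log2 fold change of -0.03 (SE 0.11). The core chaperone gene Pomp had one of -0.24 (SE 0.17), and its level split by library like that of Psmd4, with 183 CPM in MMS 2 and 212 in MMS 4 against 344 to 415 in controls. Ubb, which encodes polyubiquitin, had a log2 fold change of 0.02 (SE 0.10).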

How the data were processed

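Hypothalamic RNA of 12 pups (6 control, 6 MMS, grouped by sample title) was made into QuantSeq 3' libraries and sequenced on an Ion Proton. The authors aligned reads to mm10 in Torrent Suite and deposited a table of raw, unnormalized counts with a column for each library. Reads carry no molecular identifiers, so the counting SD covers counting error only. How reads were assigned to genes, with which annotation and strand setting, is not given in the sources used here.

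Of 43280 rows, 27 carried calendar dates in place of symbols and were kept unnamed. The 13104 genes that passed the edgeR count filter (minimum count 10, minimum total 15) held 99.6% of counts. Group differences came from edgeR 4.0.16 under R 4.3.3, by quasi-likelihood (robust, TMM scaling, group as the sole term, two-sided), adjusted by Benjamini-Hochberg at a threshold of 0.05, and the procedure was tested on simulated data. P-values measure the spread between pups and do not account for litters. CPM used TMM-scaled totals and were not divided by transcript length, since 3' reads do not scale with it. Log2 CPM took a prior count of 2, and fold changes are MMS relative to control. No columns of other samples were present (0 unused).

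Replicates in each group differed by more than sampling noise (chi-square per degree of freedom 4.04 to 31.5), so all 12 were counted. Alternatives were DESeq2 1.42.0 and its size factors, limma-voom (limma 3.58.1), no filter, the replicate block, 1 surrogate variable (sva 3.50.0), leaving out libraries, and restricting the members.

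Coordinates are 1-based, from GENCODE M21 (mm10), with 48 of 48 members matched. Shared sequence was searched with blastn 2.17.0 over the last 300 bases, at 90% identity and 100 bases or more. Genes named were the 5 members with the smallest unadjusted p in each direction, the catalytic beta subunits, the most and least abundant member of each class, rows in no class or under the filter, and, in every other list, 2 genes per direction by smallest p. Others were chosen after their values were seen, among them Psma1, Psmb4, Psmd7, Psmd8, Psmd14, Psme3, Zfand5, Pomp, Ubb and Nfe2l1. Members and lists were chosen with earlier results of these data known.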

Additional observations from a re-analysis of the deposited data

Results flagged for a closer look

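In a group of 6 libraries a value was taken as standing apart when its gap to the nearest other library, divided by the group's range, exceeded Dixon's 95% critical value. Of 78 sets of 6 values tested 4 met this, and chance alone gives about 1 in 20, or 3.9. Psma7, an alpha ring subunit gene, stood at 355 CPM in MMS 5, with the other MMS libraries at 223 to 271. Psmb7, the subunit with trypsin-like activity, stood at 103 CPM in MMS 4, with the others at 140 to 159. Psmf1, the inhibitor gene, stood at 58.0 CPM in MMS 4, with the others at 43.1 to 47.5. Psmg4, a chaperone of the core, stood at 13.3 CPM in control 2, with the other controls at 16.96 to 18.8.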

How the results depend on the processing

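No member passed an adjusted p of 0.05 under any of the 19 alternatives, and the smallest adjusted p was 0.242 (Psmd13 without MMS 5). The number of members at an unadjusted p under 0.05 was 0 to 10 of 48 when 1 library was left out, beside 5.27% to 13.6% of all genes, with the members' share above that of all genes without MMS 5 and without MMS 6. With the replicate block it was 5 (Psmc5, Psmd3, Psmd4, Psmd8 and Psmd13, all lower), or 10.4% beside 9.34% of all genes, against 3 without it. Without the count filter it was 3 (Psma6, Psmb2 and Psmd6, all higher), or 6.25% beside 8.66% of all genes. With 1 surrogate variable it was 2 (Psmb7 and Psmd4), or 4.17% beside 5.27%. Which members were reached, and in which direction, thus changed with the setting. The labels do not give the litter, so whether the replicate numbers pair littermates is not known. Deviations of same-numbered libraries correlated at -0.048 to 0.116, and 2 of 6 controls correlated best with their own number. Such values can neither show nor exclude a pairing. The median over members ran from -0.0255 to 0.0301 with 1 library left out, and the class medians of the beta ring (-0.0207 to 0.0499), the core chaperones (-0.0504 to 0.0807) and the immunoproteasome (-0.20 to 0.0293) crossed 0. Of 51 named genes 33 kept their sign in all alternatives. Psmg2 turned to -0.0442 with limma-voom and -0.0194 with the replicate block. With 1 surrogate variable the log2 fold change turned to -0.20 for the telencephalic marker Lhx6, 0.0232 for Psma7, 0.0615 for Psmb10, 0.0495 for Psmc1, 0.16 for Psmd10, -0.0471 for Psmd5, -0.00536 for Psmd6, -0.0308 for Psme1 and -0.0486 for Psmg4. Without MMS 2 and MMS 4 it turned to -0.15 for Lhx6, 0.00435 for Psma7, 0.0682 for Psmb10, 0.0558 for Psmc1, 0.13 for Psmd10, -0.0564 for Psmd5, -0.0161 for Psme1 and -0.0545 for Psmg4. With 1 library left out the range crossed 0 for Psma4 (-0.0045 to 0.16), Psmb10 (-0.0533 to 0.049), Psmb6-ps2 (-0.0421 to 0.33), Psmb8 (-0.40 to 0.0492), Psmc1 (-0.0873 to 0.00701), Psmc6 (-0.0154 to 0.097), Psme2b (-0.0102 to 0.19), Psmg2 (-0.14 to 0.089), the ependymal markers Drc1 (-0.0628 to 0.16) and Spag6 (-0.12 to 0.17) and the microglial marker Trem2 (-0.30 to 0.0454). The SD over members in MMS 6 was 0.202 over members with a mean of at least 50 counts. In an alternative chosen after seeing the data, leaving a control out of its own reference gave 0.217 for control 2 and 0.224 for control 4. The cause of these changes was not tested. Psmb8, with 147 counts in all, is the member most limited by depth.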
